A study of Mus musculus with 11 samples.

Results

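The 10 reactive astrocyte genes described here, Gfap, Vim, Osmr, Aspg, Serpina3n, Cd44, Lcn2, Cp, S1pr3 and Fkbp5, were chosen by symbol as genes that mark astrocytes reacting to injury or disease. All 10 were found among the 39017 genes of the deposited mouse count table, and all 10 passed the filter on low counts in every comparison. RNA was sequenced from the hippocampal CA1 region and the neocortex of mice aged 13 to 14 weeks. The knockout (KO) mice carried Camk2a-Cre and 2 floxed Dicer alleles, so that the RNase that makes miRNAs is deleted in forebrain excitatory neurons, the cells in which the Camk2a promoter drives Cre. The genotype of the mice labelled control is not given in the sources used here. The CA1 gave 2 KO libraries (D5130 and D5133, both male) and 3 control libraries (D5134 and D5135, both male, and D5138, a female). The neocortex gave 3 KO libraries (D5130, D5132 and D5133) and 3 control libraries (D5129, D5134 and D5135), all from males. The 11 libraries came from 7 animals, of which 4 gave both tissues.

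Astrocytes respond to damage, infection or loss of neurons by a graded change called reactive astrogliosis. They enlarge their skeleton of intermediate filaments, built from Gfap and Vim, and make receptors, secreted acute-phase proteins and enzymes that are low in resting astrocytes. Cytokines of the interleukin 6 family, acting through gp130-containing receptors and the transcription factor Stat3, are a well known trigger in mice, and glucocorticoids and NF-kB act on some of the same genes. Several of these genes are also made by other brain cells: Vim by vessel cells, Cd44 by microglia and other immune cells, Lcn2 by neutrophils, and Fkbp5 by neurons.

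Gene reads summed to between 24806581 and 35684618 per CA1 library and between 43144097 and 58329441 per neocortex library. Dicer1 was counted at 68.5 to 71.1 CPM (reads scaled to a common library size) in CA1 KO and 67.4 to 73.7 CPM in CA1 control libraries, and at 60.3 to 65.0 CPM in neocortex KO and 60.1 to 68.2 CPM in neocortex control libraries. This count covers the whole gene in all cells, so it neither shows nor tests the loss of the floxed exon. The summed level of 4 Y-linked genes in the control animal D5134 was 44.1% of the median of the other males in the CA1 and 40.4% in the neocortex. The members' tests of KO against control within a tissue are therefore also given without that animal. In the comparisons between tissues its libraries were left out singly, never together. Astrocyte markers were present in every library, at a summed 4512 to 5313 CPM in the CA1 and 5127 to 6009 CPM in the neocortex. Dentate gyrus markers were also present in the CA1 libraries, at a summed 272 to 308 CPM in KO and 254 to 319 CPM in control libraries, against 32.6 to 40.2 CPM in all neocortex libraries. In these bulk samples, more cells of a type and more RNA per cell cannot be told apart.

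The promoters of 4 members are shown because each holds a match to the motif of a factor that acts on reactive astrocytes. The windows run from 250 bases before to 50 bases after a RefSeq start site on GRCm38.p6 and are written 5′ to 3′ on the strand of the gene, with the match in capitals. The Gfap window (chr11:102897151-102897450, minus strand) lies within the span that GENCODE gives the gene and holds a match to the STAT motif TTCNNNGAA. The Osmr window (chr15:6874264-6874563, minus strand) and 1 of the Cp windows (chr3:19956804-19957103, plus strand) each hold a match to the AP-1 motif TGANTCA. The Serpina3n window (chr12:104406458-104406757, plus strand) holds a match to the glucocorticoid receptor motif.
Gfap: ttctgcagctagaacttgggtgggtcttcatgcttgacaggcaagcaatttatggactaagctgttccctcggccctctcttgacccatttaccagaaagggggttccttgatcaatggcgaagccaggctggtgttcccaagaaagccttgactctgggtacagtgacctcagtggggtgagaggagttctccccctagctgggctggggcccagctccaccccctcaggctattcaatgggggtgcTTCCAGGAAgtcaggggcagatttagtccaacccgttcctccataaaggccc
Osmr: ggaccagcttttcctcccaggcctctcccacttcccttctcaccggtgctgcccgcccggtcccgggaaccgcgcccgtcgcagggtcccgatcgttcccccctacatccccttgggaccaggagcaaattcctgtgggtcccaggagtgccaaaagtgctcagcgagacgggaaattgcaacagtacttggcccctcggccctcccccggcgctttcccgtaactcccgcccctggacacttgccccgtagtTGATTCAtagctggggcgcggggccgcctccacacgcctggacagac
Cp: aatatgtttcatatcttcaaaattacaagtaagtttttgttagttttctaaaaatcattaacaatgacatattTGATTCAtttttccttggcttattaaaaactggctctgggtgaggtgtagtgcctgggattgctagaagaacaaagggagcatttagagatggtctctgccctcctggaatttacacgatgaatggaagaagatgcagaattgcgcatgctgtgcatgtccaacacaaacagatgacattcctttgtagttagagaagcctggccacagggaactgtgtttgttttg
Serpina3n: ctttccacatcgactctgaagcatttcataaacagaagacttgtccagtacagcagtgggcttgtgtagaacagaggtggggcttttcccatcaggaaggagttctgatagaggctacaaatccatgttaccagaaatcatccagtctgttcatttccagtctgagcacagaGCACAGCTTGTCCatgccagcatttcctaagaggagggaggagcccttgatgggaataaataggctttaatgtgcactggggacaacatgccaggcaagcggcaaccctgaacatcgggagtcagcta

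Both strands were searched. The first base of the match lay at position -2 from the start site in Gfap, at 4 in Osmr, at -177 in Cp and at -78 in Serpina3n. Over the 32851 mouse promoter windows searched in the same way, 8.3% held the STAT motif, 7.81% the AP-1 motif and 0.47% the glucocorticoid receptor motif. Among the 11 windows of the members, the STAT motif was found in 1, the AP-1 motif in 2 and the glucocorticoid receptor motif in 1. A loose NF-kB motif was found in 10 of the 11 windows and in 50.79% of all windows. The NF-kB match of the Gfap window overlaps its STAT match. Such matches describe the letters of these windows only.

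The first comparison asked which of the members differed between KO and control CA1. In the KO CA1 5 of the 10 members rose and none fell: the filament genes Gfap and Vim, the cytokine receptor gene Osmr, the enzyme gene Aspg and the ferroxidase gene Cp. Over all 18274 genes tested with edgeR's quasi-likelihood test, 2.47% were higher and 1.41% lower at an adjusted p below 0.05. The unadjusted edgeR p was below 0.05 for 7 members, against 17.3% of all genes, and 6 members passed with DESeq2, against 5.06%, in either direction. Both KO libraries lay above all 3 control libraries for 6 members, against 15.1% of all genes. The median log2 fold change of the 10 members was 0.81, and all 10 values were positive, while the median of all genes was -0.00041. Without the control D5134 the count of members that rose was 7, and without the female control D5138 it was 5. Without the KO library D5133, which left 1 KO library assumed to vary like the controls, 2 rose, Gfap and Aspg. In that fit Vim had 0.52 (edgeR adjusted p = 0.0658), Osmr 0.91 (adjusted p = 0.0951) and Cp 0.51 (adjusted p = 0.124).

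**Figure D1:**
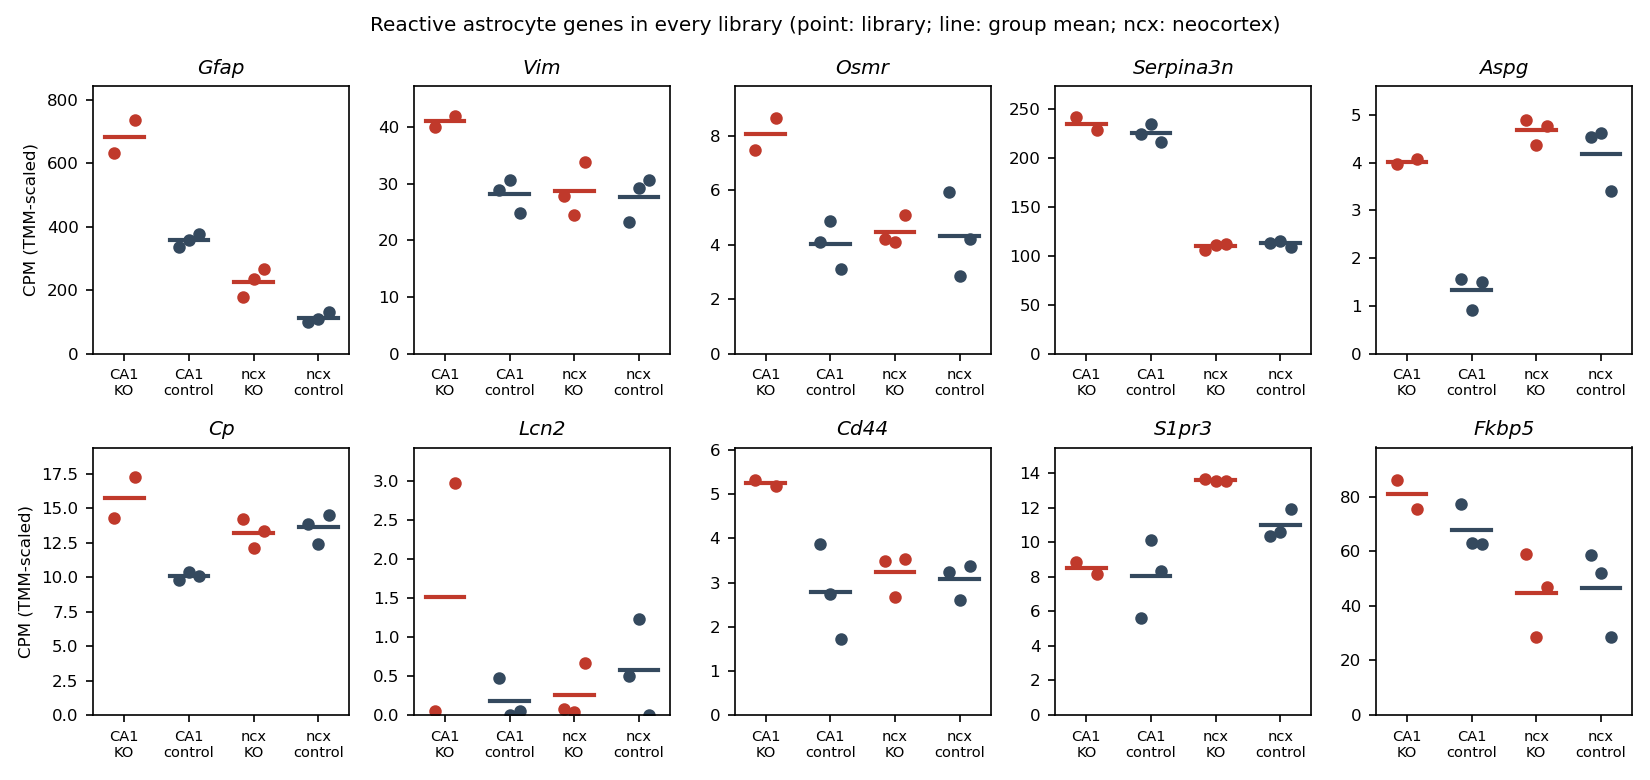
Level of each of the 10 genes in CPM (linear axis from 0, its own scale for each gene) in CA1 KO, CA1 control, neocortex KO and neocortex control libraries. Points are libraries and lines are group means. Gfap stands at 633 and 735 CPM in the CA1 KO libraries, above all others, and Aspg at 0.922 to 1.55 CPM in the CA1 control libraries, below all others.

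Gfap, the main filament protein of reactive astrocytes (chromosome 11, 102887336 to 102900912, minus strand), was counted at 633 and 735 CPM in the KO CA1 libraries D5130 and D5133. The CA1 controls D5134, D5135 and D5138 had 335, 359 and 377 CPM. The groups did not overlap, and the difference between them was several times the spread within either. The log2 fold change was 0.96 (SE 0.070, adjusted p = 1.39e-05 by edgeR), or 1.95-fold, and it passed in every fit that left out 1 library. In the neocortex, Gfap was counted in KO D5130, D5132 and D5133 at 178, 236 and 265 CPM. The neocortex controls D5129, D5134 and D5135 had 101, 108 and 131 CPM. These groups did not overlap either, and the log2 fold change was 0.99 (SE 0.18), but the KO libraries spread more widely and the edgeR adjusted p was 0.0620. The same neocortex value passed with DESeq2 (adjusted p = 8.52e-05), with edgeR without robust estimation (adjusted p = 0.0120) and with edgeR without the KO library D5130 (1.14, adjusted p = 0.00535).

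Vim, the second filament protein of reactive astrocytes (chromosome 2, 13573927 to 13582478, plus strand), stood at 40.1 and 42.1 CPM in KO CA1, against 28.9, 30.8 and 24.9 CPM in control CA1. Its log2 fold change was 0.57 (SE 0.095, adjusted p = 0.00497 by edgeR). Its neocortex levels were 27.9, 24.4 and 33.8 CPM in KO and 23.3, 29.3 and 30.7 CPM in control libraries. The neocortex groups overlapped almost fully, with a log2 fold change of 0.043 (SE 0.14, adjusted p = 0.920 by edgeR). Of the 8 other genes of the intermediate filament and astrocyte cytoskeleton list, Lmna, which encodes nuclear lamins, was the 1 that rose in the CA1 (0.36, SE 0.083, adjusted p = 0.0289 by edgeR). The next by p were the muscle and pericyte filament gene Des (0.91, SE 0.30, adjusted p = 0.115) and the dynamin gene Dnm2 (0.17, SE 0.072, adjusted p = 0.230). None of these 8 passed with edgeR in the neocortex, 0 at an unadjusted p below 0.05, against 18% of all genes there, and 0 with DESeq2, against 5.43%. The call on Lmna was lost without D5134, without D5138, without D5130 and without D5133, each of which left 0 of the 8.

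Osmr encodes the receptor subunit that pairs with gp130 to bind oncostatin M (chromosome 15, 6813577 to 6874296, minus strand). It was counted at 7.48 and 8.65 CPM in KO CA1, against 4.11, 4.88 and 3.09 CPM in control CA1. Its log2 fold change was 1.03 (SE 0.19, adjusted p = 0.00757 by edgeR). Neocortex levels were 4.23, 4.11 and 5.09 CPM in KO libraries, all within the range of the controls at 5.92, 2.87 and 4.22 CPM. The neocortex log2 fold change was 0.033 (SE 0.22, adjusted p = 0.965 by edgeR). On the list of gp130 cytokines and Stat3 signalling, 15 of the 18 genes were tested in the CA1. The transcription factor gene Stat3 was the 1 that rose there, with 60.6 and 62.6 CPM in KO and 48.9, 49.3 and 47.7 CPM in control libraries (0.36, SE 0.068, adjusted p = 0.00840 by edgeR). Without D5138 or without D5133 the call on Stat3 was lost and 0 of the list passed. The receptor gene Il6ra had 0.61 (SE 0.18, adjusted p = 0.0746) and the kinase gene Tyk2 0.30 (SE 0.093, adjusted p = 0.0938), neither past the threshold.

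Cd44, the receptor for the matrix polysaccharide hyaluronan (chromosome 2, 102811141 to 102901458, minus strand), had 5.33 and 5.19 CPM in KO CA1, against 3.89, 2.74 and 1.73 CPM in control CA1. The groups did not overlap, but the controls spread widely, and D5138 stood lowest. Its log2 fold change of 0.96 (SE 0.26) did not pass with edgeR (adjusted p = 0.0631), and it passed with DESeq2 (adjusted p = 0.0310) and with edgeR without D5134 (1.26, adjusted p = 0.00926). In the neocortex Cd44 had 3.49, 2.68 and 3.55 CPM in KO and 3.23, 2.61 and 3.38 CPM in control libraries, with a log2 fold change of 0.069 (SE 0.17, adjusted p = 0.893 by edgeR). Of the 12 genes of hyaluronan synthesis and binding, 1 rose in the CA1. This was Spp1, which encodes osteopontin, a secreted Cd44 ligand made mainly by microglia and macrophages in the injured brain (1.59, SE 0.24, adjusted p = 0.00596 by edgeR). Without D5130 the call on Spp1 was lost. The link protein gene Hapln4 (-0.28, SE 0.075, adjusted p = 0.0552) and the hyaluronan receptor gene Lyve1 (1.24, SE 0.43, adjusted p = 0.140) did not pass there. In the neocortex Hapln4 was the 1 of 12 that fell (-0.45, SE 0.065, adjusted p = 0.00665 by edgeR), and none of the list passed without D5133.

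S1pr3 encodes a receptor for the lipid sphingosine 1-phosphate (chromosome 13, 51408618 to 51422797, plus strand). In the CA1 it had 8.87 and 8.16 CPM in KO libraries, inside the range of the controls at 5.62, 10.1 and 8.30 CPM. The log2 fold change was 0.11 (SE 0.20, adjusted p = 0.856 by edgeR). In the neocortex it had 13.7, 13.6 and 13.5 CPM in KO libraries, all above the controls at 10.4, 10.6 and 11.9 CPM. The neocortex log2 fold change of 0.30 (SE 0.092) did not pass with edgeR (adjusted p = 0.107). Its exons share 45 of 4463 bases with the opposite-strand gene Gm32834. Of the other 10 genes of this lipid pathway, Sphk1, the kinase that makes sphingosine 1-phosphate, was the 1 that rose in the CA1, at 4.37 and 2.82 CPM in KO and 1.41, 1.64 and 2.15 CPM in control libraries (1.08, SE 0.25, adjusted p = 0.0299 by edgeR). The call was lost without D5138, without D5135 or without D5130. None of these 10 passed with edgeR in the neocortex, 3 had an unadjusted p below 0.05, against 18% of all genes, and 2 passed with DESeq2, against 5.43%.

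The secreted protease inhibitor gene Serpina3n (chromosome 12, 104406729 to 104414329, plus strand) did not pass in either tissue. It was counted at 242 and 228 CPM in KO CA1 and at 224, 235 and 216 CPM in control CA1, with a log2 fold change of 0.085 (SE 0.058, adjusted p = 0.510 by edgeR). The neocortex had 106, 110 and 112 CPM in KO and 113, 115 and 109 CPM in control libraries, with a log2 fold change of -0.044 (SE 0.052, adjusted p = 0.728 by edgeR). The KO and control libraries overlapped in both tissues. Serpina3n belongs to a cluster of close paralogs, so its count is uncertain to the extent that shared reads were split or dropped.

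Cp, the copper enzyme ceruloplasmin that oxidises iron for export and that astrocytes carry on their surface (chromosome 3, 19957054 to 20009145, plus strand), had 14.3 and 17.3 CPM in KO CA1. The CA1 controls had 9.81, 10.4 and 10.1 CPM, tightly grouped and below both KO libraries. The log2 fold change was 0.67 (SE 0.12, adjusted p = 0.00824 by edgeR). In the neocortex Cp had 14.2, 12.2 and 13.3 CPM in KO and 13.9, 12.4 and 14.5 CPM in control libraries, with a log2 fold change of -0.047 (SE 0.096, adjusted p = 0.866 by edgeR). Its exons share 108 of 9566 bases with the opposite-strand gene Hps3, whose reads cannot be told apart from those of Cp in the unstranded CA1 libraries. Of 10 other iron handling genes tested in the CA1, 1 rose, the ferrireductase gene Steap3 (0.58, SE 0.15, adjusted p = 0.0490 by edgeR). The ferritin gene Fth1 (-0.24, SE 0.067, adjusted p = 0.0678) and the transferrin receptor gene Tfrc (-0.20, SE 0.084, adjusted p = 0.239) did not pass with edgeR. With DESeq2 1 gene of this list fell in the CA1, against 5.06% of all genes passing in either direction. The call on Steap3 was lost without D5134, D5135, D5138 or D5130, and no gene of this list rose with DESeq2. None of 9 passed with edgeR in the neocortex. An unadjusted p below 0.05 was found for 2, against 18% of all genes there, and 0 passed with DESeq2, against 5.43%.

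Lcn2, a secreted lipocalin that binds iron carriers and is the classic early marker of astrocytes after endotoxin (chromosome 2, 32384633 to 32387759, minus strand), was near the limit of detection and varied by animal. It had 2 and 78 reads (0.0567 and 2.97 CPM) in the KO CA1 libraries D5130 and D5133, and 13, 0 and 2 reads (0.481, 0 and 0.0557 CPM) in the control CA1 libraries D5134, D5135 and D5138. In the neocortex it had 4, 2 and 38 reads (0.0772, 0.0403 and 0.667 CPM) in KO D5130, D5132 and D5133, and 26, 52 and 0 reads (0.497, 1.23 and 0 CPM) in the control libraries D5129, D5134 and D5135. The animals D5133 and D5134 were thus high in both tissues and D5130 and D5135 low in both, whatever the genotype. The count of 0 in D5135 allows up to 0.0892 CPM in the CA1 and 0.0647 CPM in the neocortex, taken at 3 reads and covering counting error only. The fitted log2 fold changes were 3.18 in the CA1 (SE 2.04, adjusted p = 0.560 by edgeR) and -1.07 in the neocortex (SE 1.43, adjusted p = 0.781 by edgeR), and without D5133 the CA1 value turned to -1.46.

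Aspg, an asparaginase-like enzyme gene used as a pan-reactive astrocyte marker in mice (chromosome 12, 112106683 to 112127573, plus strand), gave the largest fold change of the 5 that rose. It was counted at 3.97 and 4.08 CPM in KO CA1, against 1.55, 0.922 and 1.50 CPM in control CA1. The log2 fold change was 1.63 (SE 0.25, adjusted p = 0.00253 by edgeR), or 3.09-fold, and it passed in every fit that left out 1 library. In the neocortex it was counted at 4.90, 4.37 and 4.77 CPM in KO and at 4.55, 4.62 and 3.40 CPM in control libraries, with a log2 fold change of 0.15 (SE 0.15, adjusted p = 0.665 by edgeR). Both KO CA1 libraries lay within the range of the 6 neocortex libraries, and all 3 control CA1 libraries lay below it.

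Fkbp5, a co-chaperone that restrains the glucocorticoid receptor and is itself induced by glucocorticoids (chromosome 17, 28399095 to 28517524, minus strand), had 86.2 and 75.4 CPM in KO CA1, against 77.5, 63.0 and 62.6 CPM in control CA1. The groups overlapped, and the log2 fold change of 0.28 (SE 0.095) did not pass with edgeR (adjusted p = 0.137), though it passed without D5134 (0.39, adjusted p = 0.0155). In the neocortex it had 58.8, 28.7 and 46.9 CPM in KO libraries, against 58.7, 52.1 and 28.5 CPM in control libraries. The neocortex log2 fold change was -0.060 (SE 0.41, adjusted p = 0.967 by edgeR), and 1 animal of each genotype, the KO D5132 and the control D5135, stood far below the others. Plin4 and Hif3a, 2 glucocorticoid response genes picked here after their values were seen, were low in the same neocortex libraries: Plin4 had 1.73 CPM in D5132 and 1.49 CPM in D5135 but 8.62 to 12.25 CPM in the other 4, and Hif3a had 6.51 and 2.97 CPM but 15.9 to 19.8 CPM. Their list was mixed. Mt2 was also lowest in D5132 and D5135, at 53.6 and 39.3 CPM against 68.2 to 91.6 CPM. Per1 was not, at 177 and 183 CPM against 121 to 221 CPM, nor was Errfi1, at 35.4 and 33.6 CPM against 30.6 to 36.9 CPM. In the CA1 the controls D5135 and D5138 were low, with 2.59 and 3.065 CPM of Plin4 against 13.6 and 9.04 CPM in the KO libraries, while the control D5134 had 15.1 CPM.

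**Figure D2:**
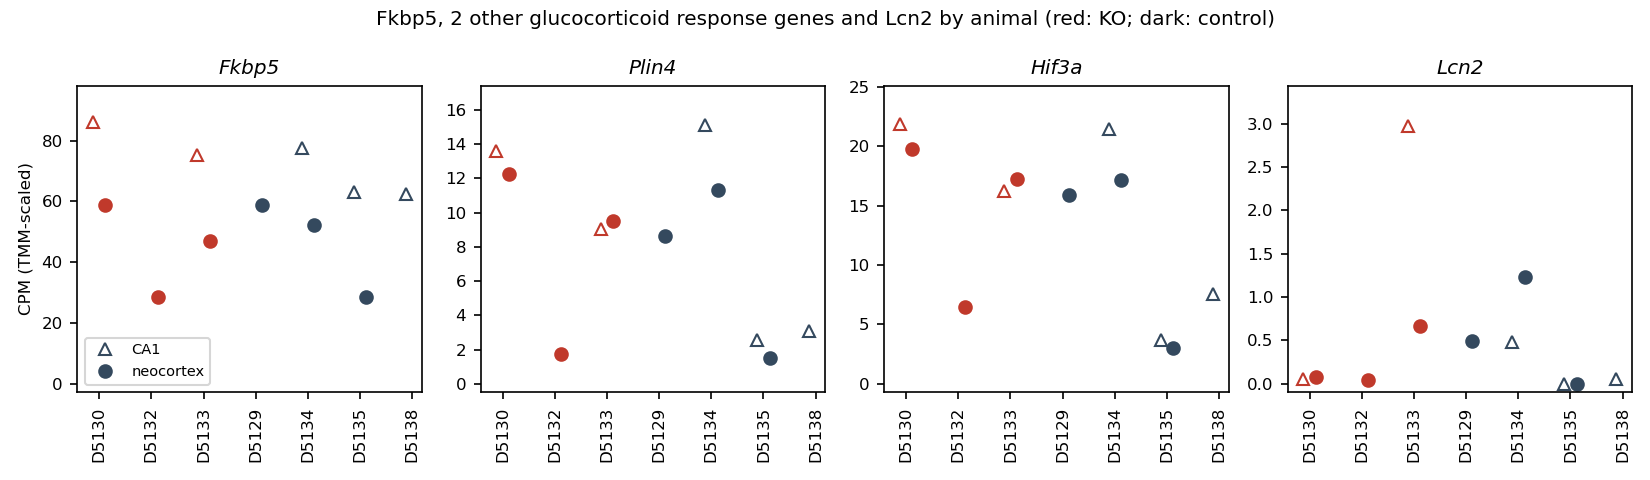
Level in CPM (linear axis) of Fkbp5, of the glucocorticoid response genes Plin4 and Hif3a, and of Lcn2 by animal, KO animals D5130, D5132 and D5133 in red and control animals in dark blue. Open triangles are CA1 and filled circles neocortex libraries. The KO D5132 and the control D5135 are low in Plin4 and Hif3a, and Lcn2 is high in D5133 and D5134 of either genotype. Plin4 and Hif3a were picked after their values were seen, and not all genes of their list followed them.

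Over the 18 other glucocorticoid response genes, 1 rose and 1 fell in the KO CA1. The transcription factor gene Zbtb16 rose (0.41, SE 0.078, adjusted p = 0.00977 by edgeR), and Nr3c1, which encodes the glucocorticoid receptor, fell (-0.39, SE 0.089, adjusted p = 0.0295 by edgeR). Sult1a1 had 0.60 (SE 0.22, adjusted p = 0.177). Without D5134, 4 rose and 2 fell, without D5138 or D5133 none passed, and without D5130 or D5135 1 rose. In the neocortex 0 of 18 passed with edgeR, 0 at an unadjusted p below 0.05, against 18% of all genes, and 0 with DESeq2, against 5.43%.

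In the neocortex as a whole, 0 of the 10 members passed with edgeR, against 1.51% of all 16971 genes higher and 1.2% lower. The unadjusted p was below 0.05 for 2 members, Gfap and S1pr3, against 18% of all genes, a share near the background. With DESeq2 1 member passed, Gfap, against 5.43% of all genes. Without the control D5134 none passed with edgeR. All 3 KO libraries lay above all 3 controls for the same 2 members, against 12.3% of all genes. The median log2 fold change of the members was 0.038, and 6 of 10 were positive, with a median of all genes of 0.0021. The neocortex libraries fell into 2 sets by the makeup of their ERCC spike-in RNAs (set 1 with the KO D5130 and D5132 and the control D5129, set 2 with the KO D5133 and the controls D5134 and D5135), which the labels do not name. The Gfap log2 fold change was 1.04 within set 1 and 1.14 within set 2. Each set has 1 library in one arm, so these are given as values with no test. With the set as a term it was 1.09 (edgeR adjusted p = 0.0220).

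**Figure D3:**
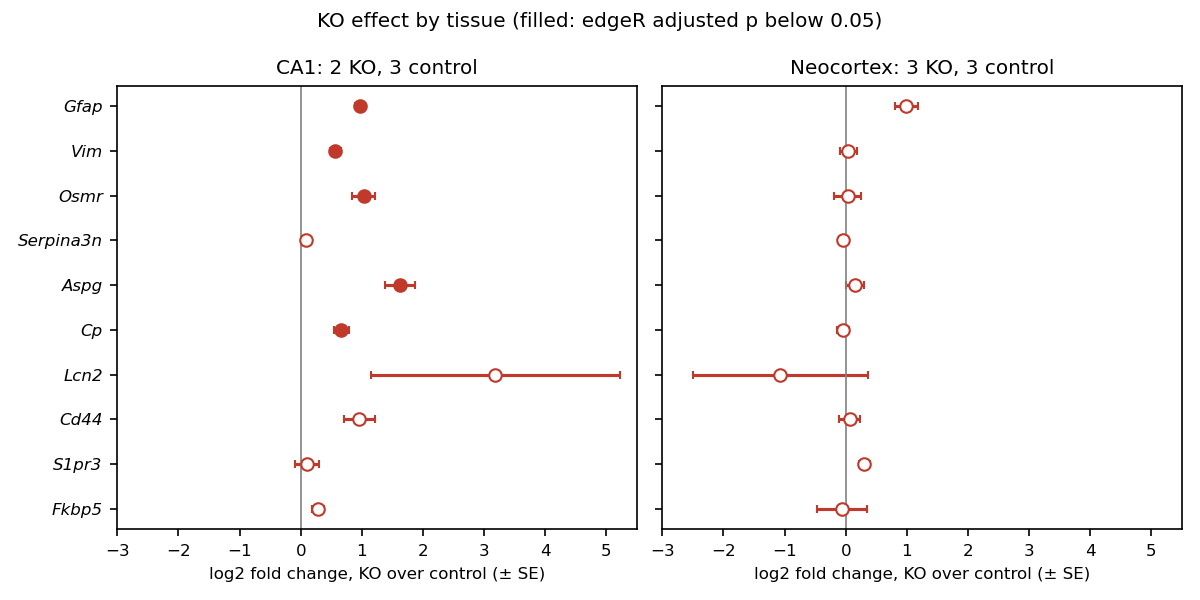
Log2 fold change of KO over control for the 10 genes, with SE bars, in the CA1 (left) and the neocortex (right); filled points have an edgeR adjusted p below 0.05. In the CA1 5 points are filled, and in the neocortex none is, though Gfap lies at 0.96 in the CA1 and 0.99 in the neocortex.

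An interaction term in a fit of all 11 libraries tested whether the KO effect differed between the tissues. For Gfap the effects were of the same size, and the CA1 minus neocortex difference was -0.031 (SE 0.23, adjusted p = 1.00 by edgeR). The differences were 1.48 for Aspg (SE 0.28, adjusted p = 0.0559), 0.71 for Cp (SE 0.15, adjusted p = 0.0959), 1.00 for Osmr, 0.89 for Cd44 and 0.52 for Vim. With edgeR 0 of the 10 members passed, against 0.0935% of all 19256 genes (18 genes, and 1 to 31 when 1 library was left out), and 5 members had an unadjusted p below 0.05, against 9.51% of all genes. With DESeq2 2 members passed, against 0.826% of all genes, Aspg (adjusted p = 0.00129) and Cp (adjusted p = 0.00801). With the animal as a block, Aspg passed with edgeR (1.48, adjusted p = 0.0400), and it also passed without the CA1 control D5134 (1.59, edgeR adjusted p = 0.0478) and without the neocortex control D5135 (1.59, adjusted p = 0.0374). The median difference over the 10 members was 0.62, while the median of all genes was 0.0067. Tissue and library kit cannot be told apart in these differences, although a constant kit effect on a gene cancels.

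**Figure D4:**
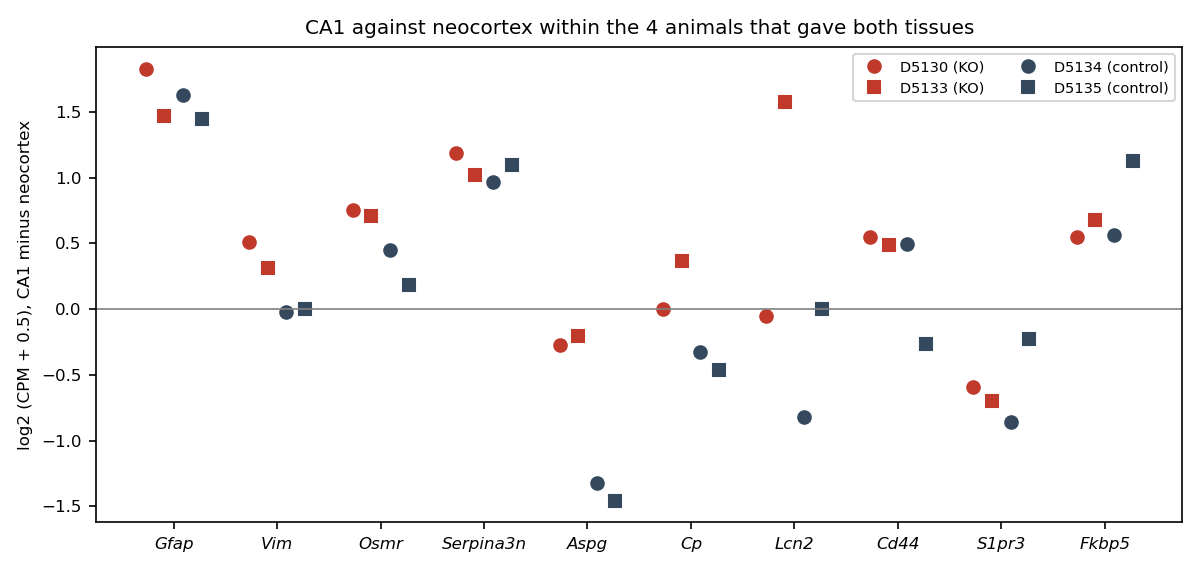
CA1 minus neocortex on the log2(CPM + 0.5) scale for the 10 genes within each of the 4 animals that gave both tissues, KO animals in red and control animals in dark blue. Aspg lies at -0.27 and -0.20 in the KO animals and at -1.32 and -1.46 in the controls, and Gfap between 1.45 and 1.83 in all 4.

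Within the 4 animals that gave both tissues, the CA1 stood above the neocortex in Gfap by 1.83 and 1.47 (log2 of CPM + 0.5) in the KO animals D5130 and D5133, against 1.63 and 1.45 in the controls D5134 and D5135. For Aspg the CA1 stood below the neocortex by -0.27 and -0.20 in the KO animals, against -1.32 and -1.46 in the controls. For Cp the difference was 0.0017 and 0.36 in the KO animals and -0.33 and -0.47 in the controls, and for Vim it was 0.51 and 0.31 against -0.021 and 0.0050. In Aspg, Cp, Vim and Osmr the KO animals lay above both controls, and in Gfap, Serpina3n, Cd44, S1pr3 and Fkbp5 they did not separate.

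The last comparison set the CA1 against the neocortex in control mice only. Of the 10 members, 2 were higher in the CA1 (Gfap and Serpina3n) and 2 were lower (Aspg and Cp), against 27.2% of 17937 genes higher and 22.5% lower by the same edgeR threshold. Differences between tissues were therefore common, and the tissues were also made with different kits, unstranded for the CA1 and stranded for the neocortex, so tissue and kit cannot be told apart. Gfap averaged 357 ± 20.8 CPM in control CA1 and 113 ± 15.9 CPM in control neocortex (SD, n = 3 each), and the log2 fold change was 1.67 (SE 0.091, adjusted p = 1.05e-07 by edgeR). Serpina3n averaged 225 ± 9.30 CPM in control CA1 and 112 ± 2.79 CPM in control neocortex, a log2 fold change of 1.02 (SE 0.053, adjusted p = 4.52e-09 by edgeR). Its log2 fold changes between genotypes, given above, were 0.085 in the CA1 and -0.044 in the neocortex.

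Aspg averaged 1.33 ± 0.352 CPM in control CA1 and 4.19 ± 0.683 CPM in control neocortex (log2 fold change -1.65, SE 0.23, adjusted p = 5.75e-05 by edgeR). Cp averaged 10.1 ± 0.286 CPM in control CA1 and 13.6 ± 1.08 CPM in control neocortex (log2 fold change -0.41, SE 0.10, adjusted p = 0.00459 by edgeR). S1pr3 (-0.43, adjusted p = 0.0620) and Fkbp5 (0.56, adjusted p = 0.197) did not pass with edgeR. With the animal as a block both passed with edgeR, S1pr3 at -0.53 (adjusted p = 0.00844) and Fkbp5 at 0.86 (adjusted p = 0.000381). S1pr3 also passed with DESeq2 (adjusted p = 0.0401), as 48.2% of all genes did, and without the CA1 control D5135 (-0.63, edgeR adjusted p = 0.00998), and Fkbp5 without the neocortex control D5135 (0.30, edgeR adjusted p = 0.0261). Vim (0.040), Osmr (-0.098), Cd44 (-0.14) and Lcn2 (-1.79) did not pass in any fit run. The same 4 members passed without the female D5138 and without either library of D5134, each left out singly.

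Set per kilobase of exon, over all annotated exons of a gene, Serpina3n was the highest member in control CA1 at 109 ± 4.51 CPM per kb. It was followed by Gfap at 84.6 ± 4.93, Fkbp5 at 7.15 ± 0.894, Vim at 5.94 ± 0.632, S1pr3 at 1.80 ± 0.506 and Cp at 1.05 ± 0.0299 CPM per kb (SD, n = 3). Cd44 at 0.411 ± 0.159, Aspg at 0.377 ± 0.0999 and Osmr at 0.332 ± 0.0739 CPM per kb lay within their spread of each other, and Lcn2 was lowest at 0.0682 ± 0.100 CPM per kb. In KO CA1 Gfap stood first, at 162 ± 17.1 CPM per kb, ahead of Serpina3n at 114 ± 4.61 CPM per kb (SD, n = 2). In the neocortex Gfap and Serpina3n were close in KO libraries, at 53.7 ± 10.6 and 53.0 ± 1.55 CPM per kb, whereas in control libraries Gfap had 26.8 ± 3.77 and Serpina3n 54.4 ± 1.35 CPM per kb (SD, n = 3 each).

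Lists of other reaction genes in mice were read beside the members. Of the 12 genes reported in astrocytes after endotoxin, 5 rose in the KO CA1 and none fell: the complement inhibitor gene Serping1 (1.09, SE 0.22, adjusted p = 0.0203 by edgeR), the interferon-induced GTPase gene Gbp2 (0.90, SE 0.22, adjusted p = 0.0368), Ggta1 (0.75, SE 0.19, adjusted p = 0.0390), the matrix gene Fbln5 (0.70, SE 0.16, adjusted p = 0.0290) and the class I antigen gene H2-D1 (0.47, SE 0.099, adjusted p = 0.0172). The list median was 0.65, but the count was 2 without D5135, 3 without D5130 and 0 without D5138 or without D5133, and 3 passed with DESeq2. H2-D1 has close paralogs and its count is uncertain. In the neocortex 0 of 12 passed with edgeR, 1 had an unadjusted p below 0.05, and 0 passed with DESeq2. Of the genes reported in astrocytes after ischaemia, 12 were tested in the CA1 and 3 rose: the endotoxin co-receptor gene Cd14 (1.23, SE 0.19, adjusted p = 0.00320 by edgeR), Stat3 and Sphk1. Without D5138, 10 of these genes were tested and 1 passed. In the neocortex 1 of 10 rose, again Cd14, at 4.57, 4.74 and 5.55 CPM in KO and 3.04, 3.18 and 3.21 CPM in control libraries (0.65, SE 0.14, adjusted p = 0.0328 by edgeR). None of the 10 passed there without D5129, D5130, D5132, D5133 or D5134. Of the 4 remaining pan-reactive genes, Steap4 (2.26, SE 0.63, adjusted p = 0.0609), Hspb1 (0.74, SE 0.43, adjusted p = 0.430) and Cxcl10 (0.83, SE 0.62, adjusted p = 0.561) led in the CA1, 0 passed with edgeR, 1 had an unadjusted p below 0.05, and 0 passed with DESeq2. In the neocortex 0 of these 4 passed with edgeR, 0 at an unadjusted p below 0.05 and 0 with DESeq2. Over all genes, the unadjusted edgeR p was below 0.05 for 17.3% in the CA1 and 18% in the neocortex. With DESeq2 5.06% of all genes passed in the CA1 and 5.43% in the neocortex.

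General astrocyte markers, which include Gfap, moved less. In the CA1 2 of 14 rose, Gfap and the water channel gene Aqp4, which had 131 and 154 CPM in KO and 109, 114 and 125 CPM in control libraries (0.32, SE 0.081, adjusted p = 0.0454 by edgeR). Without D5133, D5135 or D5138 the count was 1. Aldoc, a glycolytic enzyme of astrocytes, had 0.19 (SE 0.050, adjusted p = 0.0527). The summed level of the 14 was 5220 to 5313 CPM in KO CA1 and 4512 to 4746 CPM in control CA1. Gfap itself supplied 633 and 735 CPM of the KO sums and 335 to 377 CPM of the control sums. In the neocortex 0 of 14 passed with edgeR, 4 had an unadjusted p below 0.05, against 18% of all genes, and 2 passed with DESeq2, against 5.43%. Summed levels there were 5532 to 6009 CPM in KO and 5127 to 5525 CPM in control libraries. Gfap itself supplied 178 to 265 CPM of these KO sums and 101 to 131 CPM of the control sums. The lowest KO sum, 5532 CPM, lay just above the highest control sum, 5525 CPM. Of the 14 log2 fold changes in the neocortex, Gfap included, 13 were positive, with a median of 0.11. Whether the other markers rose apart from Gfap was not tested. Between the tissues in controls, 4 of the 14 were higher and 6 lower in the CA1, so the higher level of Gfap there was not shared by the whole list.

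Markers of other cell types moved with the members in the KO CA1. Of 12 microglia markers 7 rose, among them the complement genes C1qb (1.05, SE 0.070, adjusted p = 9.55e-06 by edgeR) and C1qc (1.04, SE 0.079, adjusted p = 1.39e-05), and their summed level was 529 to 587 CPM in KO and 387 to 410 CPM in control libraries. Of the 12 log2 fold changes 11 were positive, but the groups overlapped for Cx3cr1, P2ry12, Tmem119 and Itgam. P2ry12 had 16.8 and 22.5 CPM in KO and 22.4, 25.6 and 21.8 CPM in control libraries. Without D5133 4 of the 12 rose. Of 9 meningeal fibroblast markers 4 rose, Igf2 (1.45, SE 0.14, adjusted p = 0.00210), Ogn, Col1a2 and Aldh1a2, and their summed level was 222 to 265 CPM in KO and 99.5 to 110 CPM in control libraries. Without D5130 2 of these 9 rose. All 7 oligodendrocyte markers fell, led by Cldn11 (-0.59, SE 0.069, adjusted p = 0.000413), with summed levels of 2790 to 2812 CPM in KO and 3444 to 4182 CPM in control libraries. Without D5130 4 of the 7 fell, and without D5133 3 fell. Of 8 endothelial markers 1 rose, Pecam1 (0.42, SE 0.10, adjusted p = 0.0387 by edgeR), with summed levels of 180 to 186 CPM in KO and 162 to 185 CPM in control libraries, and it did not pass without D5130, D5133, D5135 or D5138. The part of these cell types in the values of the members was not tested. The neutrophil gene Ly6g was at 0 in all 11 libraries and S100a8 at 0.381 CPM or less, and of the neutrophil list only the receptor gene Csf3r, which microglia also express, was high enough to test in the CA1 and rose (1.04, SE 0.17, adjusted p = 0.00490 by edgeR), a call lost without D5133.

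In the neocortex 4 of 12 microglia markers rose (Cd68, Tyrobp, C1qb and C1qc), at 618 to 675 CPM in KO and 581 to 599 CPM in control libraries in sum, and 0 rose without D5133. The list was mixed there, with 7 of 12 log2 fold changes positive, and with DESeq2 5 rose and 1 fell. P2ry12 had 29.5, 27.8 and 32.6 CPM in KO libraries, all below the controls at 34.7, 35.0 and 44.2 CPM. Meningeal markers there summed to 132 to 178 CPM in KO and 99.2 to 195 CPM in control libraries, where the highest was the control D5135. None of the 9 passed with edgeR, and the median log2 fold change was 0.14. None had an unadjusted p below 0.05, against 18% of all genes, and none passed with DESeq2, against 5.43%. Without D5135, 2 of the 9 rose with edgeR and the median was 0.60. Oligodendrocyte markers in the neocortex summed to 2799 to 3315 CPM in KO and 3077 to 3167 CPM in control libraries.

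**Figure D5:**
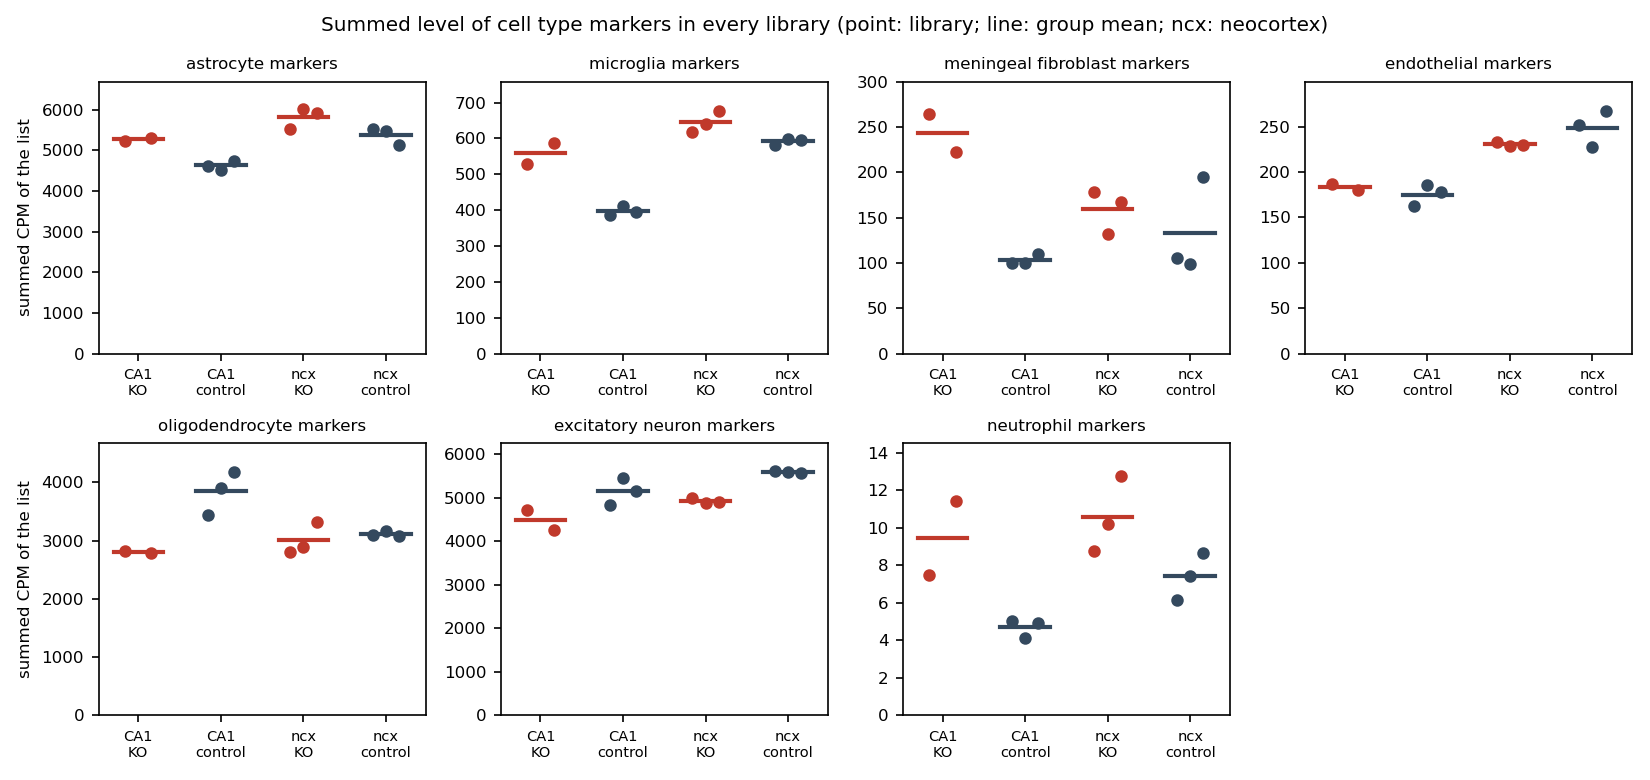
Summed level in CPM (linear axis from 0) of the markers of 7 cell types in CA1 KO, CA1 control, neocortex KO and neocortex control libraries. Points are libraries and lines are group means. In the CA1 the astrocyte, microglia, meningeal fibroblast and neutrophil sums are higher, and the oligodendrocyte and excitatory neuron sums lower, in both KO libraries than in all 3 controls. The astrocyte sum includes Gfap. The neutrophil sum is almost all Csf3r, which microglia also express. Csf3r makes up 7.31 of 7.48 CPM in the KO CA1 library D5130 and 10.3 of 11.4 CPM in D5133.

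As a description of which genes varied together, the log2 levels of the members were centred within each tissue and correlated over the 11 libraries. These libraries share animals and genotype groups, so the values carry no p. Osmr and Cp had the highest correlation of any pair of members (r = 0.83), followed by Osmr and Cd44 (r = 0.82) and Aspg and Cp (r = 0.81). Gfap correlated at r = 0.62 with Aspg and 0.60 with Vim but at 0.057 with Serpina3n and -0.11 with Fkbp5. Among 12542 other genes that averaged 1 CPM or more in each tissue, the 5 most like Gfap were Neurod1 (r = 0.98), Rpn2 (0.98), Slc14a1 (0.98), Polr2a (0.97) and Trak2 (0.97). Among 12534 genes outside the members, the 5 most like the mean of the 10 standardised members were Itpr3 (0.98), Anxa3 (0.97), Ntn5 (0.97), Gsdmd (0.95) and Cd53 (0.95).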

How the data were processed

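The deposited table holds whole-number read counts per Ensembl gene, which the authors left unnormalized. Per the labels' protocols, total RNA was extracted with TRIzol, a stranded mRNA kit with ERCC spike-in RNAs served for the neocortex and an unstranded one for the CA1. The tools named are GSNAP, SAMtools, bedtools and FastQC, with build GRCm38, per the submitters' processing notes; their versions, their roles and the counting rule are not given in the sources used here. Without strand in the CA1 counts, genes that overlap on opposite strands share reads. Symbols and exon lengths came from GENCODE M21, which matched 37607 of 39017 identifiers (96.4%), and promoters came from RefSeq (GRCm38.p6).

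KO was tested against control in each tissue by edgeR 4.0.16 (R 4.3.3), using TMM scaling, filterByExpr and the robust quasi-likelihood F-test. P-values are two-sided and Benjamini-Hochberg adjusted over all genes tested, with a threshold of 0.05. Tissue differences of the KO effect were tested as an interaction in all 11 libraries, and the baseline in the 6 control libraries. CPM values use TMM sizes over all 11 libraries, and the SE is the absolute log2 fold change over the square root of F. The code was tested on simulated data. Alternatives were DESeq2 1.42.0, other scaling, no filter, no robust estimation, spike-in sets, an animal block and each library left out. The labels name the same animal for both tissues of 4 animals, and deviations of their 2 libraries from the group means correlated across genes at r = 0.152 to 0.247. No 2 libraries of a group were copies, since counts differed by a chi-square of 9.99 to 22.1 per gene. The ERCC sets were found by clustering 35 ERCC RNAs with a mean of at least 50 reads.

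All members are named, and genes of the other lists were taken from up to 3 with the smallest p and from the passing genes of lists with 5 or fewer, not all of which are reported. Members and lists were chosen with earlier results of these data known. Genes were not corrected for length or C and G content except where a level is given per kilobase.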

Additional observations from a re-analysis of the deposited data

How the results depend on the processing

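The count of members that passed in the neocortex, 0 in the main test, was 1 with DESeq2, without robust estimation and with the spike-in set as a term, in each case Gfap, and 0 to 1 when 1 library was left out. Within set 2 the fit also gave 1, but its KO arm is 1 library, so it is not read as a test. In the CA1 it was 2 to 7 when 1 library was left out, against 5, and Cd44 and Fkbp5 also passed without the filter. For the difference of the KO effects it was 2 with DESeq2 and without the filter, 1 with the replicate block (animal) and 0 to 1 when 1 library was left out, against 0. In the paired fit with the replicate block the difference turned to 0.14 for Gfap and -0.20 for Fkbp5, and the control baseline to 0.14 for Cd44 and 0.36 for Osmr, none past the threshold. The block changed no calls other than those of Aspg, S1pr3 and Fkbp5 given above.

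Other changes of sign concerned log2 values that did not pass. In the neocortex these were -0.063 for Cd44 and -0.50 for Osmr within set 1, 0.21 for Fkbp5 and 0.13 for Lcn2 within set 2, and -0.0065 for Osmr with the set as a term. Scaling by the ERCC reads moved the median of all genes to 1.06, and Cp to 1.04, Fkbp5 to 0.92 and Serpina3n to 1.01, all below that median, while Gfap was 2.12. With 1 library left out, neocortex values ran from -0.091 to 0.15 for Vim, -0.18 to 0.32 for Osmr, -0.10 to 0.0100 for Cp, -3.22 to 0.071 for Lcn2, -0.029 to 0.19 for Cd44 and -0.32 to 0.18 for Fkbp5. In the CA1 they ran from -0.085 to 0.31 for S1pr3 and from -1.46 to 4.21 for Lcn2, which did not pass the filter on low counts in 1 fit. The difference between tissues ran from -0.20 to 0.074 for Gfap and from -0.39 to 6.64 for Lcn2, and the baseline from -0.078 to 0.12 for Vim, -0.32 to 0.19 for Osmr and -0.45 to 0.11 for Cd44. The cause of these changes was not tested. Lcn2, with 0 to 78 reads, is limited by depth and by the spread between animals.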

Other observations

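Neuronal markers also differed in the KO mice. In the KO CA1 3 of 4 CA1 pyramidal markers fell, Wfs1 (-1.26, SE 0.18, edgeR adjusted p = 0.0261), Pou3f1 (-0.68, SE 0.085, adjusted p = 0.000682) and Man1a (-0.65, SE 0.12, adjusted p = 0.0151), with summed levels of 291 to 316 CPM in KO and 463 to 522 CPM in control libraries. Without the control D5134, D5135 or D5138, each left out singly, 2 of these 4 fell. Of 6 excitatory neuron markers 1 fell there, the transcription factor gene Neurod6 (-0.56, SE 0.081, adjusted p = 0.00253), and their sums were 4252 to 4726 CPM in KO and 4835 to 5461 CPM in control CA1. In the KO neocortex 1 of 6 excitatory markers fell, the calmodulin-binding gene Nrgn (-0.37, SE 0.065, edgeR adjusted p = 0.0151), with sums of 4872 to 5001 CPM in KO and 5572 to 5623 CPM in control libraries. Without D5132 or without D5133 no excitatory marker passed in the neocortex.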
